A study of Mus musculus with 6 samples.

Results

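Striatal and thalamic marker genes were followed in mouse hippocampal RNA, to describe how much of their signal each dissected sample held and whether it differed between genotypes. The set was chosen as every probe set of the array that the platform annotation assigns to 1 of 9 symbols and to no other: Drd2, Adora2a, Rgs9, Six3, Tac1 and Penk for striatum, and Tcf7l2, Lef1 and Rora for thalamus. It held 25 probe sets of 8 genes, of 18194 genes named by the 45101 probe sets in all. Adora2a, a gene for an adenosine receptor, has no probe set named for it in the annotation used here and was not analysed here. Total RNA of hippocampus came from 3 wild-type samples and 3 samples of mice lacking inhibitor-1, and each sample was measured on 1 Affymetrix array, which reads a transcript through sets of short probes. Inhibitor-1, encoded by Ppp1r1a, is a protein that blocks protein phosphatase 1 once protein kinase A has phosphorylated it. The labels give genotype, tissue and a replicate number. They give no strain, sex, age, treatment, targeting construct or dissection protocol, and do not say whether the arrays came from separate animals. Each p-value thus rests on the scatter among these 6 samples, part of which may be technical.

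The striatum lies in front of and beside the hippocampus and the thalamus beneath it. Medium spiny neurons, the principal cells of the striatum, use GABA and fall into a direct pathway, which makes substance P from Tac1, and an indirect pathway, which makes enkephalin from Penk and carries the dopamine receptor of Drd2 and the adenosine receptor of Adora2a. In these neurons the receptors raise or lower cAMP and thereby protein kinase A, the kinase that activates inhibitor-1 and its paralog DARPP-32. Thalamic relay neurons are excitatory and keep the Wnt pathway transcription factors Tcf7l2 and Lef1 active in the adult. Several of these genes are not exclusive to either region. Tac1 and Penk are also made by hippocampal neurons, Tcf7l2 by the oligodendrocyte lineage, Lef1 acts in the development of the hippocampus, and Rora is widespread in the brain.

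Promoter sequences are shown for 3 members that carry letters bound by factors that the study's pathway or the members themselves concern. Lef1 also carries such letters, and its sequences are not shown. A RefSeq promoter (GRCm38.p6) was listed for 7 of the members, 11 promoters in all, and only the 250 bases before the transcription start were read. The letters searched on both strands were TGACG, the core of the cAMP response element bound by CREB, which protein kinase A phosphorylates and protein phosphatase 1 dephosphorylates; TGACGTCA, the full element, which contains that core; AGGTCA, bound by ROR proteins; and CTTTGA, bound by TCF/LEF proteins. The Tac1 promoter is chr6:7554811-7555060, plus strand, and the first Tcf7l2 promoter is chr19:55741560-55741809, plus strand; capitals mark the cAMP response element core, read here on the other strand as CGTCA. The Drd2 promoter is chr9:49340153-49340402, plus strand, and capitals mark the TCF/LEF letters, read on the other strand.
Tac1: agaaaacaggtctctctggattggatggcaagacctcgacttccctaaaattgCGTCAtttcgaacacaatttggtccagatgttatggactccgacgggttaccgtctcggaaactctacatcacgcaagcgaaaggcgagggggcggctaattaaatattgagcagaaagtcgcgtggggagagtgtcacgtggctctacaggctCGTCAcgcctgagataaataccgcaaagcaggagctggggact
Tcf7l2: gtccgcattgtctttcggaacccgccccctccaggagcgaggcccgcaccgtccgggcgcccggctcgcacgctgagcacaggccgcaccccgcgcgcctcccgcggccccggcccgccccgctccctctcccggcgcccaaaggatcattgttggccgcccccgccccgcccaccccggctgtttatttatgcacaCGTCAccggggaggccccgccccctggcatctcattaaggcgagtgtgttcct
Drd2: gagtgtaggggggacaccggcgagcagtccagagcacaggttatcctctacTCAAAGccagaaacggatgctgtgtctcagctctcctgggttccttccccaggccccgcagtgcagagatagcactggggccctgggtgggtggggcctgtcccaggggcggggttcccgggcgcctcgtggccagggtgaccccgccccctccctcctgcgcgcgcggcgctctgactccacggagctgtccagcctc
The core starts 197 and 43 bases before the start of Tac1 and 53 before that of Tcf7l2, and it is found in 17.8% of all 32851 promoters of this length. The TCF/LEF letters start 199 bases before the start of Drd2 and are found in 13.8% of all promoters. They occur also in 1 of the 4 Lef1 promoters, 180 and 120 bases before its start. The full element (1.55% of all promoters) and the ROR letters (14.0%) were in 0 of the 11 promoters of members. A match is a description of letters and was not tested as a binding site.

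Values are intensities on the deposited linear scale, where the mean of each array without 2% of the values at either end is 2500. Probe sets above the level that 40% of all probe sets lie below, an intensity of about 332, were tested, which kept 26999 probe sets and 17 of the 25 member probe sets. Each of the 8 genes kept at least 1. Y-linked probe sets, 9 in number, serve as a guide to the level without transcript, since Xist was bright on all 6 arrays; they stayed at or below 285. Ppp1r1a, the targeted gene, read 8370 to 10345 in the wild-type samples and, without overlap, 249 to 347 in those lacking it (log2 change -4.93, SE 0.18, limma adjusted p = 3.58e-07). All 15 genes of a hippocampal marker list were above the filter, and their mean level stayed within -0.04 to 0.05 log2 units of its average on every array. Single genes of this list varied more, by up to 2.165-fold between the highest and the lowest array. Replicate 1 of both groups stood apart from the other arrays: of 15 choroid plexus markers tested, 12 were lowest on these 2 arrays, against 8.77% of all 12493 genes. The median intensity over the whole array was also lowest on these 2, at 574 in wild type and 542 in knockout, against 621 to 666 on the others. Its part in the levels of single genes there was not tested.

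None of the members passed the test between genotypes. Of 17 tested member probe sets, 0 were called higher and 0 lower by limma at an adjusted p under 0.05 (0% and 0.0111% of all tested probe sets), and the lowest adjusted p was 0.988. At an unadjusted p under 0.05 there were also 0, where 4.38% of all tested probe sets had one. Changes were above 0 for 9 and below 0 for 8 (50.9% of all tested probe sets were above 0), with a median log2 change of 0.08 beside 0.004 over all tested probe sets. Knockout and wild-type values did not overlap for 2 of the 17, 1 in each direction, where 9.89% of all tested probe sets did not overlap. The differences that these arrays could have missed vary widely between members, as their 95% intervals below show.

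**Figure D1:**
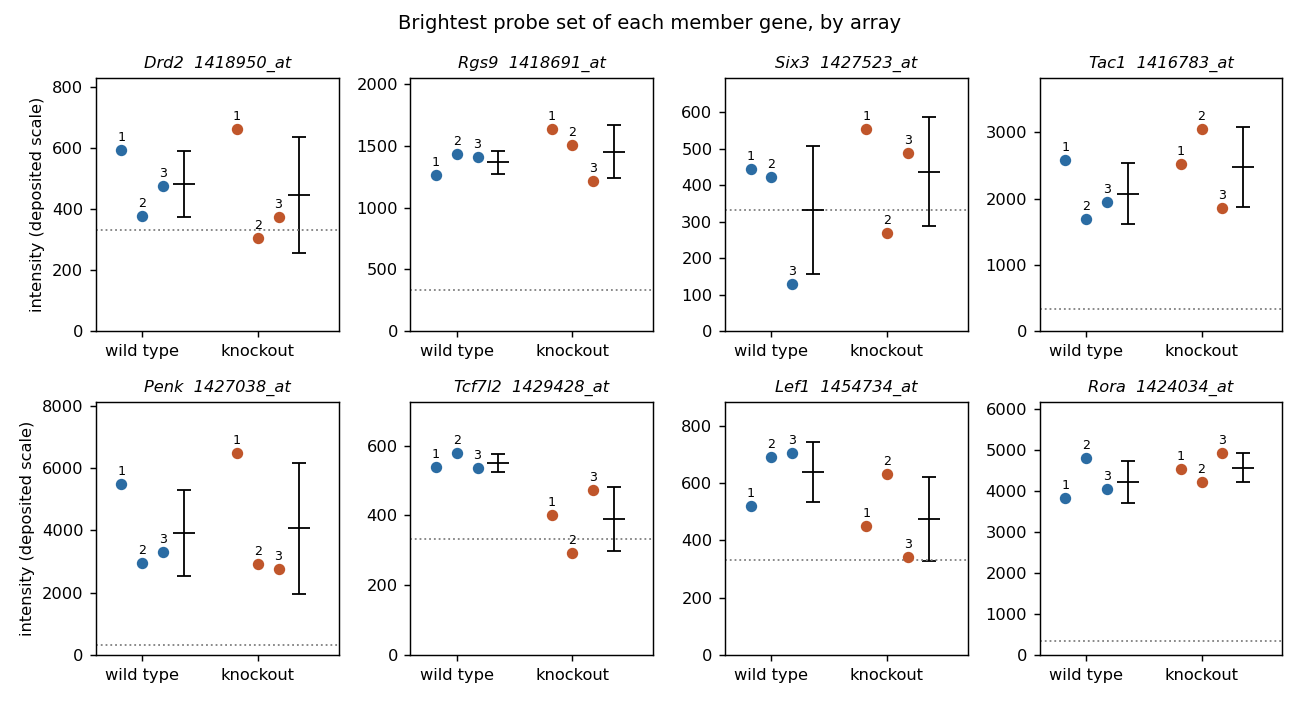
Intensity (y axis, deposited linear scale) of the brightest probe set of each member in wild type and knockout; points are single arrays marked with their replicate number, bars beside them the mean and SD of 3 arrays, and the dotted line is the filter level of about 332. Replicate 1 is highest in both groups for Penk and Drd2, and the 3 knockout values of Tcf7l2 lie below the 3 wild-type values.

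Penk, the precursor of the enkephalin opioid peptides, was high on replicate 1 of both groups. Its only probe set, 1427038_at, had intensities of 5503, 2948 and 3316 in wild type replicates 1 to 3 and of 6500, 2937 and 2768 in knockout replicates 1 to 3. The other 4 arrays lay close together, and the genotypes overlapped. The highest array was 2.35-fold above the lowest, where the median over all tested probe sets was 1.47-fold. The group means, 3922 ± 1381 and 4068 ± 2108 (SD, n = 3 each), were close: the log2 change was -0.0084 (SE 0.31, limma adjusted p = 0.999), with a 95% interval of 0.625-fold to 1.58-fold. Without replicate 1 of both groups the change was -0.13 (limma adjusted p = 0.791). It was -0.40 without knockout replicate 1 alone and 0.26 without wild type replicate 1 alone, so a single array set its sign.

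Drd2, a dopamine receptor that indirect pathway neurons carry, was also highest on replicate 1 of both groups at its only probe set, 1418950_at. Whether this signal came from striatal or hippocampal cells was not tested. Its intensities were 593, 378 and 476 in wild type and 663, 304 and 376 in knockout. The lowest value, that of knockout replicate 2, lay under the filter level of about 332, whereas for Penk the lowest array was knockout replicate 3. The log2 change was -0.16 (SE 0.38, limma adjusted p = 0.997), with a 95% interval of 0.503-fold to 1.60-fold, and -0.31 without replicate 1 of both groups (limma adjusted p = 0.848). The change had the other sign without knockout replicate 2 (0.07) and was -0.47 without knockout replicate 1.

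Rgs9, a regulator that speeds the shut-off of G proteins coupled to dopamine and opioid receptors in striatal neurons, varied little. Its brightest probe set, 1418691_at, read 1264, 1436 and 1411 in wild type and 1638, 1505 and 1219 in knockout. Here wild type replicate 1 was the lowest of its group and knockout replicate 1 the highest of all, so the order of arrays was not that of Penk. The change was 0.08 (SE 0.19, limma adjusted p = 0.997), with a 95% interval of 0.795-fold to 1.40-fold, and it was -0.07 without replicate 1 of both groups (limma adjusted p = 0.934). The other 2 probe sets of Rgs9 lay under the filter and had changes of opposite sign, -0.42 and 0.43.

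Tac1, the precursor of substance P and neurokinin A, read 2589, 1695 and 1949 in wild type and 2528, 3053 and 1857 in knockout at probe set 1416783_at. Knockout replicate 2 was the highest array and wild type replicate 2 the lowest, and the groups overlapped. The change was 0.25 (SE 0.21, limma adjusted p = 0.988), with a 95% interval of 0.863-fold to 1.63-fold. It was 0.08 without knockout replicate 2 and 0.39 without replicate 1 of both groups. The dimmer Tac1 probe set, 1431883_at, was under the filter and also highest on knockout replicate 2, at 454, against 251 to 336 on the other arrays.

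Six3, a homeodomain factor needed for the development of indirect pathway neurons, lay near the level without transcript. Its brightest probe set, 1427523_at, read 445, 421 and 129 in wild type and 554, 269 and 488 in knockout, so that 2 of 6 values fell below the filter level. The change was 0.50 (SE 0.51, limma adjusted p = 0.988), with a 95% interval of 0.645-fold to 3.08-fold, and -0.05 without wild type replicate 3. The other 2 probe sets were under the filter and disagreed: 1426638_at was lowest, at 40, on knockout replicate 1, where 1426637_a_at was highest, at 208. At 1426637_a_at the knockout values of 208, 23 and 62 lay above the wild-type values of 12, 18 and 19, all of them under the highest Y-linked value of 285. The 3 probe sets of Six3 did not share an order of arrays.

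Tcf7l2, the Wnt pathway transcription factor most typical of thalamic neurons, had the change furthest below 0 among the tested member probe sets. Its brightest probe set, 1429428_at, read 539, 580 and 535 in wild type and 402, 291 and 474 in knockout. All knockout values lay below all wild-type values, with 1 of them under the filter level. The group means were 551 ± 25.1 and 389 ± 92.0 (SD, n = 3 each), and the change was -0.51 (SE 0.33, limma adjusted p = 0.988), with a 95% interval of 0.426-fold to 1.16-fold. Without replicate 1 of both groups it was -0.56 (limma adjusted p = 0.684). The other 3 probe sets of Tcf7l2 were under the filter, overlapped between the groups and had changes above 0, of 0.20 to 0.69. The lower values in knockout were thus those of 1 dim probe set of 4.

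Lef1, which binds the same DNA letters as Tcf7l2, read 520, 691 and 707 in wild type and 451, 633 and 341 in knockout at probe set 1454734_at. The groups overlapped through knockout replicate 2. The change was -0.45 (SE 0.33, limma adjusted p = 0.988), with a 95% interval of 0.446-fold to 1.21-fold. The other probe set, 1421299_a_at, read 170, 448 and 613 in wild type and 370, 279 and 438 in knockout, with a change of -0.02 (SE 0.48, limma adjusted p = 0.999). Its lowest value was that of wild type replicate 1, which was not the lowest array at the first probe set. Without that array the change was -0.54, and without wild type replicate 3 it was 0.34, so its sign rested on single arrays. Without replicate 1 of both groups it was -0.56 (limma adjusted p = 0.699), beside -0.57 at the first probe set (limma adjusted p = 0.648).

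Rora, a nuclear receptor of the ROR family that activates clock and metabolic genes, had 9 probe sets, all tested, of which 6 had a change above 0 and 3 below. The brightest, 1424034_at, read 3834, 4807 and 4055 in wild type and 4554, 4229 and 4943 in knockout. These overlapped, and the change of 0.12 (SE 0.12, limma adjusted p = 0.988) had the narrowest interval among the members, 0.905-fold to 1.30-fold. Probe set 1458129_at had the lowest p of all member probe sets, at 1017, 1179 and 1162 in wild type and 1851, 1342 and 1357 in knockout. All knockout values were above all wild-type values there, with a change of 0.42 (SE 0.20, limma adjusted p = 0.988). Without replicate 1 of both groups it was 0.20 (limma adjusted p = 0.789), and without knockout replicate 1 alone 0.27. The other 7 probe sets overlapped between the groups, with changes of -0.25 to 0.11.

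**Figure D2:**
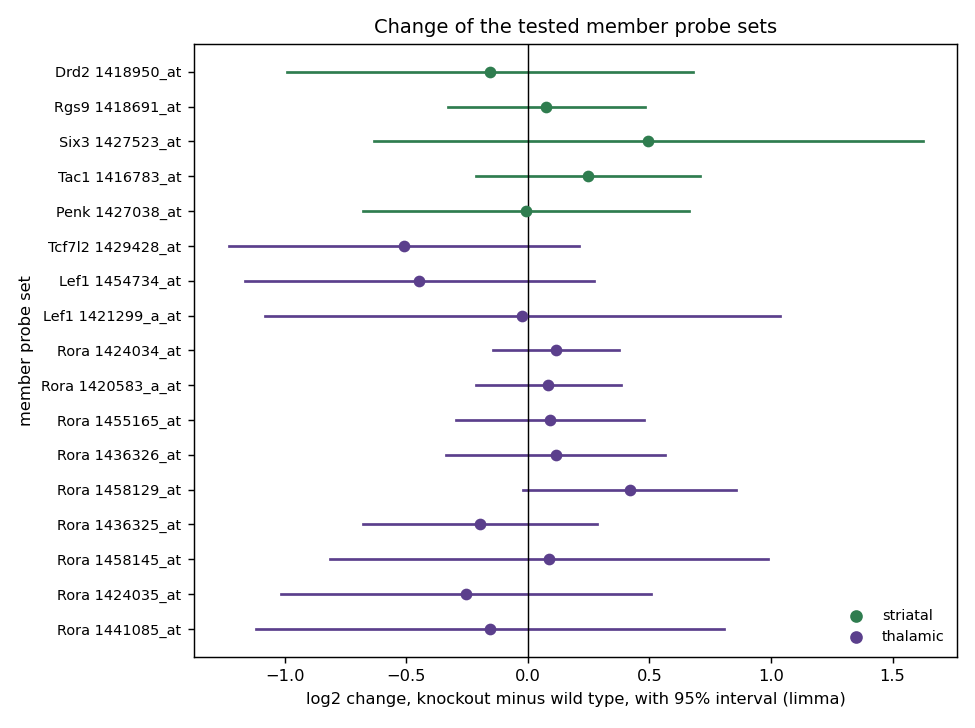
Log2 change, knockout minus wild type (x axis), of the 17 tested member probe sets (y axis) with 95% intervals from limma over 3 against 3 arrays; green marks striatal and purple thalamic genes. All 17 intervals include 0, and that of Rora probe set 1458129_at comes closest to leaving it out, at -0.02 to 0.86.

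Taken as lists, with each gene given by its brightest probe set, the striatal and thalamic members were described without a test. The mean log2 level of the 5 striatal genes was 10.1 ± 0.302 in wild type and, in knockout, 10.2 ± 0.354 (SD, n = 3 each). The difference was 0.13, and it fell to 0.001 when the third wild-type array was left out. On that array dim Six3 deviated by -1.34 from its mean, and the list mean by -0.32. Six3 also had the largest change of the 5 genes, 0.50, so the difference rested largely on this probe set near the level without transcript. Replicate 1 was the highest array of each group, by 0.27 in wild type and 0.48 in knockout above the average of all arrays, and the difference was -0.07 without knockout replicate 1 and 0.09 without replicate 1 of both groups. The mean level of the 3 thalamic genes was 10.2 ± 0.139 in wild type and, in knockout, 9.90 ± 0.0124 (SD, n = 3 each), a difference of -0.28, and of -0.36 without replicate 1 of both groups. The changes were -0.51 for Tcf7l2 and -0.45 for Lef1, both dim, and 0.12 for Rora. From their means over all arrays, Lef1 deviated by -0.25, 0.22 and -0.64 in knockout replicates 1 to 3 and Tcf7l2 by -0.18, -0.63 and 0.05. The small knockout SD was thus one of the list mean and not of its genes. The groups did not overlap in the list mean, but with the mean of all probe sets of each gene in place of the brightest the difference was 0.02. The direction of the thalamic list mean therefore held with the brightest probe sets and not with all.

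Other markers of the same regions were read beside the members. Of 17 further striatal markers 16 had a probe set and 11 were tested; 0 were called in either direction by limma, 5 had a change above 0 and 6 below, and the median change was -0.03. The 2 of lowest p were Rxrg, a retinoid receptor subunit (0.49, SE 0.29), and Ppp1r1b, which encodes DARPP-32 (0.19, SE 0.13), both at a limma adjusted p of 0.988. Of 11 tested, 4 were highest on both replicate 1 arrays, as were 2 of the 5 striatal members, Penk and Drd2, where 8.65% of all 12493 genes were. The 4 were Drd1, the dopamine receptor of direct pathway neurons, Pde10a, the striatal phosphodiesterase, Gnal, the G protein alpha subunit of striatal receptors, and Pde1b, a calcium-dependent phosphodiesterase; they are named after their values were seen. Drd1 read 903, 834 and 439 in wild type and 1277, 463 and 734 in knockout. Pde10a differed far less, at 3944, 3337 and 3554 in wild type and 3644, 3428 and 3530 in knockout. Gnal and Pde1b also varied little. Their highest array was 1.217-fold and 1.335-fold above the lowest, where the median over all tested probe sets was 1.47-fold. Other cell types shared this order of arrays: 4 of 10 astrocyte markers and 3 of 12 interneuron markers were highest on both replicate 1 arrays, and 0 of 15 hippocampal markers. It was thus not seen in striatal markers alone.

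Of 15 further thalamic markers all had a probe set and 12 were tested, with 0 called by limma, 7 changes above 0, 5 below and a median of 0.01. The 2 of lowest p were Ntng1, a presynaptic adhesion protein of thalamic axons (0.15, SE 0.13, limma adjusted p = 0.988), and Tnnt1, a troponin that marks thalamic neurons (-0.40, SE 0.37, limma adjusted p = 0.988). The mean level of the 12 was highest on knockout replicate 3, at 0.27 above the average of all arrays with 10 genes above their own mean, and lowest on knockout replicate 1, at -0.21. In wild type it was -0.13, 0.12 and -0.01. None of the 12 was highest on both replicate 1 arrays, and 2 were lowest there. Slc17a6, the vesicular glutamate transporter of thalamic relay neurons, and Prkcd, a thalamic kinase, were chosen after their values were seen. Slc17a6 read 3831, 4957 and 3190 in wild type and 3269, 3834 and 4840 in knockout. Prkcd read 3194, 3411 and 3119 in wild type and 2077, 3054 and 3908 in knockout. Among the thalamic members at their brightest probe sets, Rora had its highest value on knockout replicate 3, Tcf7l2 the highest of the knockout values and Lef1 its lowest.

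**Figure D3:**
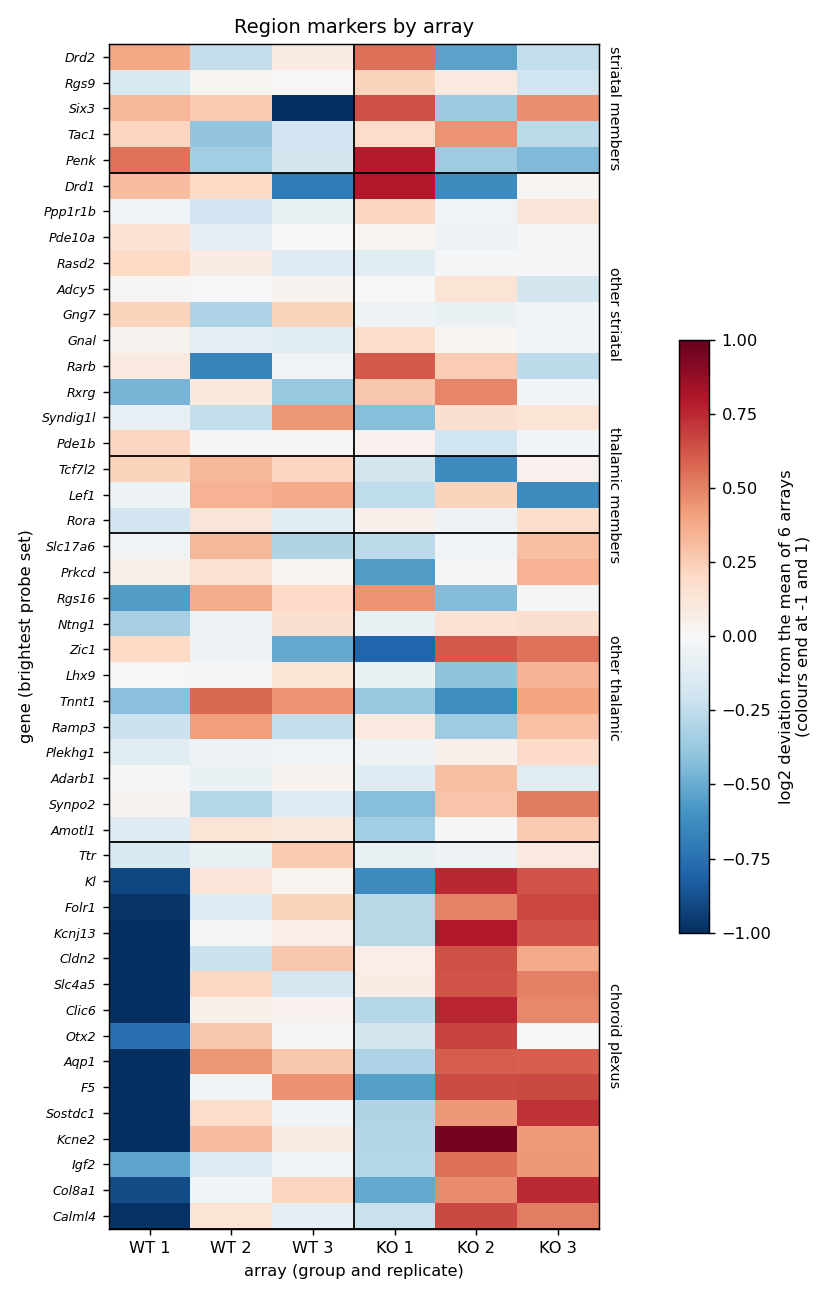
Log2 deviation of each gene's brightest probe set from its mean over 6 arrays (colour, ending at -1 and 1), with genes in rows grouped by list and arrays in columns. Penk and Drd2 are high on replicate 1 of both groups, where 12 of 15 choroid plexus markers are lowest. Drd1 is also high there, but in wild type replicate 2 it is nearly as high, at 834 beside 903.

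The choroid plexus level was lowest on the arrays that set Penk and Drd2 apart, whereas the meningeal level had another order of arrays. The choroid plexus list, secretory epithelium of the ventricles, had 14 of 15 tested members above 0 in knockout and a median change of 0.59, and 0 were called by limma. The median was 0.205 without wild type replicate 1, 0.898 without knockout replicate 1 and 0.516 without both. Its mean level was -1.01, 0.07 and 0.10 in wild type and -0.27, 0.60 and 0.50 in knockout, relative to the average of all arrays. Its summed intensity over 16 genes ran from 214028 to 308428 on wild-type arrays and from 243182 to 307418 on knockout arrays, and Ttr, the transthyretin gene, read 181800 to 242800. Arrays with low choroid plexus markers were those with high Penk and Drd2. With the choroid plexus level as a covariate the change of Penk was 0.48 (limma adjusted p = 0.803), that of Drd2 0.18 (limma adjusted p = 0.96) and that of Tcf7l2 -0.49 (limma adjusted p = 0.875). Meningeal markers had 10 of 10 above 0 with a median of 0.44 and 0 called by limma. Their mean level was -0.32, 0.04 and -0.27 in wild type and -0.12, 0.42 and 0.27 in knockout. Wild type replicate 3 thus lay below knockout replicate 1, and 3 of the 10 were lowest on both replicate 1 arrays. The meningeal median was 0.217 without wild type replicate 1, 0.634 without knockout replicate 1 and 0.389 without both. The part of how each hippocampus was cut in these levels was not tested, and in bulk RNA fewer cells of a type and less RNA per cell cannot be told apart.

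**Figure D4:**
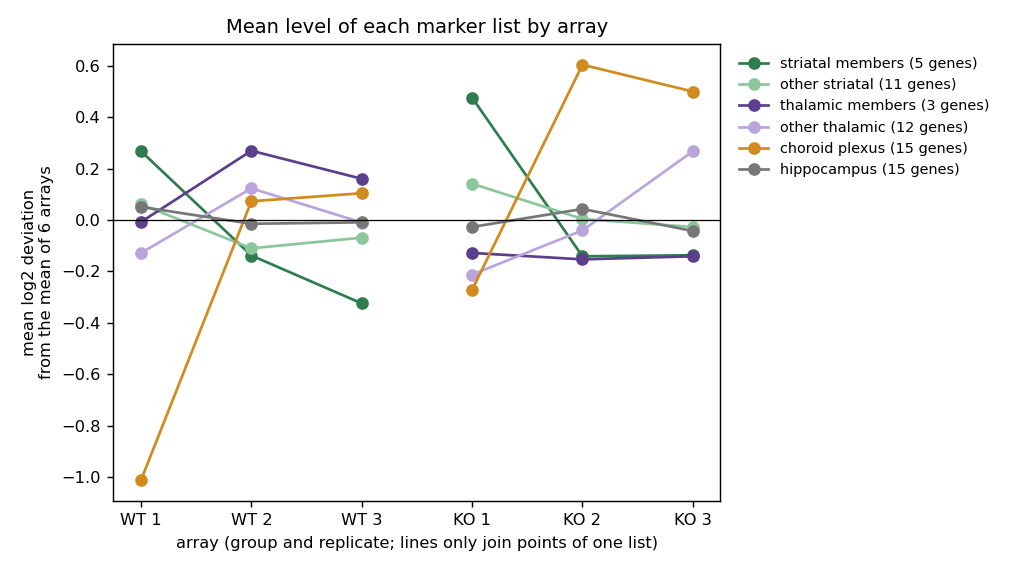
Mean log2 deviation of each marker list from its average over 6 arrays (y axis) on each array (x axis); lines join points of one list within a group. The mean of 15 hippocampal markers stays within -0.04 to 0.05. That of the 5 striatal members reaches 0.27 and 0.48 on replicate 1, and that of 11 other striatal markers runs from -0.11 to 0.14. The choroid plexus list falls to -1.01 on wild type replicate 1. The lists differ in number and brightness of genes, so the spreads of their means cannot be compared directly.

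Genes tied to the members' functions were read from fixed lists. Among partners of Rgs9 and its R7 relatives, 4 of 6 were tested, 2 above and 2 below 0 (median -0.01); Gnb5, the obligate beta subunit, had a change of -0.09 and Rgs7 of 0.06. Of 9 genes for enkephalin and tachykinin processing and receptors, 4 were tested and all had a change below 0 (median -0.09), with Pcsk1, a prohormone convertase, at -0.16 and Oprk1, the kappa opioid receptor, at -0.11. Without knockout replicate 2 that median was 0.06. Of 14 TCF/LEF partners and Wnt targets, 12 were tested, 3 above and 9 below 0 (median -0.09). This median was -0.0099 without wild type replicate 3, -0.03 without knockout replicate 1 or 3 and -0.0067 without replicate 1 of both groups. Their lowest p were those of Bcl9l, a beta-catenin coactivator (-0.35, SE 0.20), and Tle1, a Groucho corepressor (0.13, SE 0.10). Axin2, a transcriptional target of the Wnt pathway named here for that role, had a change of -0.09 and overlapping groups, at 2519, 1967 and 2451 in wild type and 2236, 2316 and 1950 in knockout. Of 5 ROR relatives and clock genes with ROR sites, 4 were tested, 2 above and 2 below 0 (median -0.01), with Nr1d1, the REV-ERB alpha repressor, at -0.40 (SE 0.17, limma adjusted p = 0.988) and Rorb at 0.37 (SE 0.19, limma adjusted p = 0.988). In these 4 lists limma called 0 genes, and all 12493 genes tested had a median change of 0.0003.

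Likeness was measured as the root mean square difference between the log2 deviations of 2 genes over the 6 arrays, for the 6 members that varied more than the median tested probe set; Rgs9 and Rora varied less. With 6 arrays and 12492 other genes, some profiles are close without any link. For Penk the nearest were A030001D20Rik (0.17), Drd2 (0.20) and Tom1l1 (0.20), beside a median of 0.50 over all genes, so Drd2 ranked second of all genes for Penk. For Drd2 they were Cpne5 (0.12), Map3k6 (0.13) and Ddc, which makes dopamine from L-DOPA (0.13), beside a median of 0.41. For Tac1 they were Cables1 (0.07), Chil1 (0.07) and Scaf4 (0.08), median 0.34. For Six3 they were Il1rapl1 (0.19), Mcm5 (0.20) and Syt8 (0.22), median 0.69. For Tcf7l2 they were Hexim2 (0.07), Pelp1 (0.08) and Tcf15 (0.09), median 0.36, and for Lef1 Sirt4 (0.07), Gna15 (0.07) and Gpr27 (0.08), median 0.40. Apart from Drd2, no gene of the striatal and thalamic lists was among these 18.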

How the data were processed

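The authors deposited linear probe set intensities; which program made them is not stated in the labels. Equal trimmed means show that the deposited intensity columns had been brought to one trimmed mean. Their medians still differed, at 574, 621 and 642 in wild type replicates 1 to 3 and 542, 664 and 666 in knockout replicates 1 to 3. Of 45101 probe sets, 34958 carry 1 symbol in the platform annotation, 932 several and 9211 none; 34754 matched by gene ID to RefSeq's gene table (GRCm38.p6), used for names only. Values were transformed as log2(intensity + 16), so fold changes are understated at low signal. Left out were 64 control probe sets and the dimmest 40%. Genotypes were tested by limma 3.58.1 under R 4.3.3 (group as the only term, intensity trend, two-sided), with Benjamini-Hochberg adjustment over all 26999 probe sets. The fit was tried on simulated data with the mean and SD of each probe set. It recovered 7.46% of changes of 0.5 log2 units, 40.3% of 1 and 66.7% of 2, with 0 false calls. Changes as small as those of the members would thus mostly go uncalled. Within lists, the brightest probe set on average stands for its gene. The members and lists were chosen with earlier results of these data known. Named are all members, Ppp1r1a, the 2 genes of lowest p in every other list and the 3 genes nearest in profile; the other genes named (Drd1, Pde10a, Gnal, Pde1b, Slc17a6, Prkcd, Axin2, Ttr, Gpr151, Pou4f1, Xist) fall outside this rule and were chosen for their role or after their values were seen. The level of Adora2a was to enter the striatal mean, which rests on 5 genes. Alternatives changed the pseudocount, the filter, the scaling and the variance model, or used array weights, a replicate block, arrays left out, a choroid plexus covariate and the mean of all probe sets. The number of arrays limits the precision, and no detection calls were used.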

Additional observations from a re-analysis of the deposited data

How the results depend on the processing

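The 17 member probe sets kept their side of the threshold in all 314 refits of single probe sets, with 23 changes of sign among them and a lowest limma adjusted p of 0.541 (Penk without knockout replicate 1); 0 member probe sets were called in any setting. For the changes listed here the cause was not tested. Lower probe sets over the whole table were 3 in the main fit and 3 or 4 under most alternatives. They were 1 without an intensity trend, 5 under the choroid plexus covariate and 7 with both replicate 1 arrays left out. Higher ones were 0, but 7 with the replicate block, 1 under the covariate, 7 with both replicate 1 arrays left out, and 0 to 2 with any 1 array left out (2 without knockout replicate 1). The numbers pair no samples in the labels, and deviations of same-numbered samples correlated at 0.24, 0.05 and 0.10, with wild type replicate 3 closest to knockout replicate 2 (0.11). The thalamic level difference was -0.18 at the largest pseudocount, 0.021 with the mean of all probe sets, and -0.36 to -0.22 leaving out 1 array; the striatal one was -0.07 to 0.30 leaving out 1 array. Of 195 list medians under alternatives, 30 changed sign and 11 moved by more than the spread between replicates. Of these 11, the hippocampal median moved to -0.08 without wild type replicate 2, -0.05 without knockout replicate 1, -0.09 without knockout replicate 2, -0.07 with both replicate 1 arrays left out and -0.04 when all probe sets of a gene were averaged. The TCF/LEF median came closer to 0 in the 4 settings given beside it, the astrocyte median was 0.0037 without knockout replicate 1, and the oligodendrocyte median was -0.07 with the mean of all probe sets. With the dimmest 60% left out, no probe set of Six3, Drd2, Tcf7l2 or Lef1 was tested, nor 4 of the 9 of Rora.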

Other observations

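Markers of other regions and cell types gave 0 calls by limma. Of 8 habenula markers 2 were tested, Nwd2 (log2 change 0.19) and the tachykinin gene Tac2 (-0.21), and the other 6, the receptor Gpr151 and the transcription factor Pou4f1 included, lay under the filter. Of 9 neocortical markers 7 were tested (median -0.02), with Nr4a2 at 0.29 and Fezf2 at -0.20, and 2 of the 7 were highest on both replicate 1 arrays. Hippocampal markers had a median of 0.0008, with Neurod6 at -0.21 and Dkk3 at -0.15.

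Oligodendrocyte markers were below 0 for 9 of 12 (median -0.16), with Fa2h, which hydroxylates myelin lipids, at -0.50 (limma adjusted p = 0.884) and Mag at -0.22. Endothelial markers were above 0 for 8 of 9 (median 0.12), with Itm2a at 0.27 and Slc2a1, the glucose transporter of brain capillaries, at 0.20. Interneuron markers had a median of -0.05, with Sst at -0.19 and Reln at 0.18, and astrocyte markers of 0.06, with Slc1a3 at 0.14 and Gfap at -0.14. In the choroid plexus list the lowest p were those of Cldn2 (0.72) and Igf2 (0.47), and in the meningeal list those of Col1a2 (0.54) and Fmod (0.58).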
